A study of Homo sapiens with 24 samples.

Results

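The chromatin accessibility of HEK293 cells that overexpressed a nuclear lamin was compared with that of HEK293 cells that overexpressed eGFP, the control (GFP). The comparison used all 12 ATAC-seq libraries of a series of 24 libraries: 9 lamin libraries, 3 each for LMNA (LaminA in the labels), LMNB1 and LMNB2, and 3 GFP libraries. They were chosen by the assay and the overexpressed gene in the labels, not by a measured value. HEK293 is an established line from human embryonic kidney. Its genotype is given as wild type for all 4 groups, all 4 groups carried an overexpressed gene, and no unmanipulated cells were among these libraries. The vector and its promoter, the time after its introduction and whether the cells were a pool or 1 clone are not given in the sources used here. The labels do not say that replicates came from separate cultures, so the p-values measure the spread between these libraries, which may be technical.

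Lamins are intermediate filament proteins that form the meshwork under the inner nuclear membrane. LMNA gives the A-type lamins, which are also found in the nuclear interior, and LMNB1 and LMNB2 give the B-type lamins, which stay farnesylated and bound to the membrane. Chromatin in contact with the lamina is mostly gene-poor and silent. In ATAC-seq a transposase inserts adapters into open DNA, so the reads over a region measure how accessible it was. The series concerns RNA polymerase III, the enzyme that transcribes tRNA, 5S rRNA and other short non-coding RNA genes. The question here was which windows moved the same way under all 3 lamins.

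Each window was an annotated non-coding RNA gene with its margins. Of 175946 such windows, 163786 had enough counts to be tested, and 151466 of the tested windows carried lncRNAs. Their median width was 5295.5 bp, and many overlap and share reads. Library totals over the windows, those on the mitochondrial chromosome included, ran from 156 to 212.2 M counts in GFP and from 189.2 to 290.2 M in the lamins. Levels are given as CPM, counts per M counts of the scaled library. Marker windows matched the labelled line only in part. The MIR17HG windows, host of a microRNA cluster of proliferating cells, had a median of 0.383 CPM per kb and those of LHX1-DT 0.530, against 0.109 for all tested windows. Of the same list MIR106B stood at 0.957, MIR10A at 0.186 and MIR10B, not tested, at 0.112. MIR302CHG, of pluripotent cells, stood at 0.0371 and MIR122HG, of hepatocytes, at 0.0888. MIR142, of blood, stood at 0.3315 and MIR124-1, of neurons, at 0.264. MIR200C, of epithelium, stood at 0.203, and MIR1-1HG and MIR133A2, of muscle, at 0.165 and 0.1375. MIR143 and MIR145, of smooth muscle and fibroblasts, stood at 0.661 and 0.496, so these windows did not separate the line from other cell types by level. GFP replicates 1 and 3 stood apart in opposite directions. In the most accessible 20% of windows the median difference from the GFP mean was 0.11, 0.02 and −0.13 log2 with GFP replicates 1, 2 and 3, and in the least accessible 20% it was −0.14, 0.01 and 0.14. The lamin libraries ranged from −0.10 to 0.08 and from −0.15 to 0.12 in the same window sets.

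Windows over the lamin genes were looked at first, to see in which libraries their counts were high. Of 22 such windows, 12 differed among the lamins by edgeR's quasi-likelihood test (0.0916% of all windows did), and none passed the pooled test. The LMNB1 gene has a pair of annotated start regions with RefSeq promoter entries (GRCh38.p14, plus strand, 250 bases before to 50 after the start) at chr5:126776373-126776672 and chr5:126776886-126777185. They are shown because, of 5 windows that hold start region 1 whole, the 2 that also hold start region 2 whole were high in the LMNB1 libraries and the others were not. The LMNB1-DT window chr5:126751823-126777068 ends inside start region 2 and was not above 0.5 log2 in LMNB1. Another high LMNB1-DT window, chr5:126777052-126778380, begins inside start region 2. In LMNB1 replicate 1 it held 2515942 counts, against 2517787 in chr5:126776099-126778380. The high counts of both windows thus lay in chr5:126777052-126778380. Whether they begin inside start region 2 or after it cannot be told from these windows, and no link to its sequence was tested. The source of the high counts was not tested either, so they are not read as accessibility. Capitals mark GGGCGG, a GC box, and CCAAT, each searched on both strands with overlapping matches counted.

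LMNB1 start region 1: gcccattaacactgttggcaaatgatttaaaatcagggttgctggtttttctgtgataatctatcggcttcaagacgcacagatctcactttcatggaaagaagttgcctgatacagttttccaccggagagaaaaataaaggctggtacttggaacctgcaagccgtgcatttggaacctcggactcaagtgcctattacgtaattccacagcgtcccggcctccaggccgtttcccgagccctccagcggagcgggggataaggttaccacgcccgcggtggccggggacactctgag
LMNB1 start region 2: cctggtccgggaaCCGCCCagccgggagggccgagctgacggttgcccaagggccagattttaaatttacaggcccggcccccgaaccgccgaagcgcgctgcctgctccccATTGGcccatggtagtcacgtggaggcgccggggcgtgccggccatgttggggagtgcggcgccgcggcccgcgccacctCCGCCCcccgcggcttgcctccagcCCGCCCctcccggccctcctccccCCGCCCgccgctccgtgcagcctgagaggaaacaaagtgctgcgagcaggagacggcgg

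Start region 1 has no match to either motif, 16 CpG and 52.0% GC, and start region 2 has 4 GC boxes, 1 CCAAT, 34 CpG and 73.7% GC. Of 35116 promoters in the same table, 44.95% hold GGGCGG and 34.61% hold CCAAT, with medians of 14 CpG and 58.7% GC. The window of LMNB1-DT, the divergent transcript of LMNB1, at chr5:126776099-126778380 holds both start regions. It had 19.8, 15 and 17.6 CPM with GFP, 20.6, 43.5 and 27.6 with LMNA, 9840, 12100 and 8700 with LMNB1, and 21, 21.5 and 30.9 with LMNB2. All 9 lamin libraries were above the 3 GFP libraries, but only the LMNB1 libraries stood far above the rest. The pooled difference was 3.50 log2 (95% interval 2.83 to 4.16; edgeR's quasi-likelihood test, Benjamini-Hochberg adjusted p = 0.0747), made of 9.19 with LMNB1, 0.81 with LMNA and 0.49 with LMNB2. Another LMNB1-DT window, chr5:126774708-126776819, holds start region 1 only and lay at 4.51, 4.13 and 4.19 CPM with GFP and from 3.92 to 4.4 in the lamins.

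Windows over LMNA and LMNB2 that were high were likewise high in 1 group only. Over LMNA, lnc-SEMA4A-1 at chr1:156106508-156114988 had 13.2, 11.3 and 8.87 CPM with GFP, 4350, 5330 and 3740 with LMNA, 13.3, 16.5 and 7.07 with LMNB1 and 7.34, 5.5 and 7.36 with LMNB2. It rose by 8.65 log2 with LMNA (adjusted p = 0.0038, edgeR's quasi-likelihood test). Over LMNB2, lnc-TIMM13-2 at chr19:2429321-2431979 had 4.41, 2.79 and 2.1 CPM with GFP and 4330, 3550 and 4580 with LMNB2. In the same window LMNA had 2.57, 0.854 and 1.86 and LMNB1 1.8, 1.91 and 11.7. LMNB1 replicate 3 was thus above the other LMNB1 libraries over LMNB2, and LMNA replicate 2 was above the other LMNA libraries over LMNB1. The cause was not tested. In each lamin group at least 1 window over the labelled gene was high in all 3 libraries. Not all windows over a gene were: 5 of 6 over LMNA and 5 of 8 over LMNB1 were not above 0.5 log2 in their own group. Most of the pooled difference of each high window came from 1 lamin. In the 3 high windows over LMNB1 the LMNA and LMNB2 libraries were also all above GFP, and with LMNB1 left out of the contrast the differences were 0.56 to 0.95 log2 (adjusted p = 0.989 in each, edgeR's quasi-likelihood test).

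**Figure D1:**
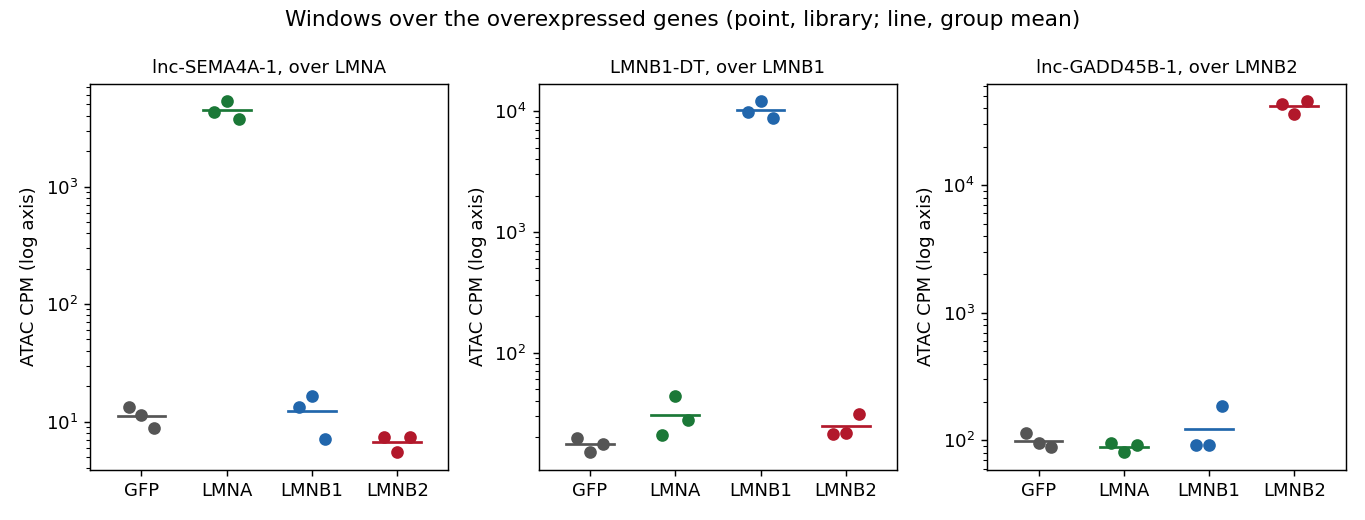
CPM (log axis) in the 12 libraries, 1 point each, for windows over the 3 lamin genes, by overexpressed gene, with the group mean as a line. The LMNB1-DT window lies between 8700 and 12100 CPM in the LMNB1 libraries and between 15 and 43.5 CPM in the other 9 libraries.

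Pooled over the lamins with equal weight, 2 of 163786 windows (0.00122%) fell and none rose at an adjusted p under 0.05 by edgeR's quasi-likelihood test. Without adjustment, 7990 windows (4.88%) had p under 0.05, 3706 higher (2.26%) and 4284 lower (2.62%). The lowest adjusted p of a higher window was 0.0522, in a long window that spans LMNB1. DESeq2's Wald test called 84 windows: 12 over lamin genes were higher, and 72 were lower, of which 45 lay on the mitochondrial chromosome. Its independent filtering left only 8190 windows with an adjusted p. Without that filtering, a test added after the data were seen, it called 62 windows, 16 higher and 46 lower. The middle of the distribution was narrow: 90% of pooled log2 fold changes lay between −0.39 and 0.36, with a median of −0.00. The 95% interval of a window reached to 0.25 log2 on either side of the estimate in the median. It lay inside a 2-fold change in either direction for 85.5% of windows, and for 43% of windows in the lowest quartile of CPM (0.0246 to 0.197). In the 3 upper quartiles it did so for 99.2%, 99.97% and 99.96%. These intervals are for single windows and are not adjusted, so they do not give the change that would pass the adjusted test.

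**Figure D2:**
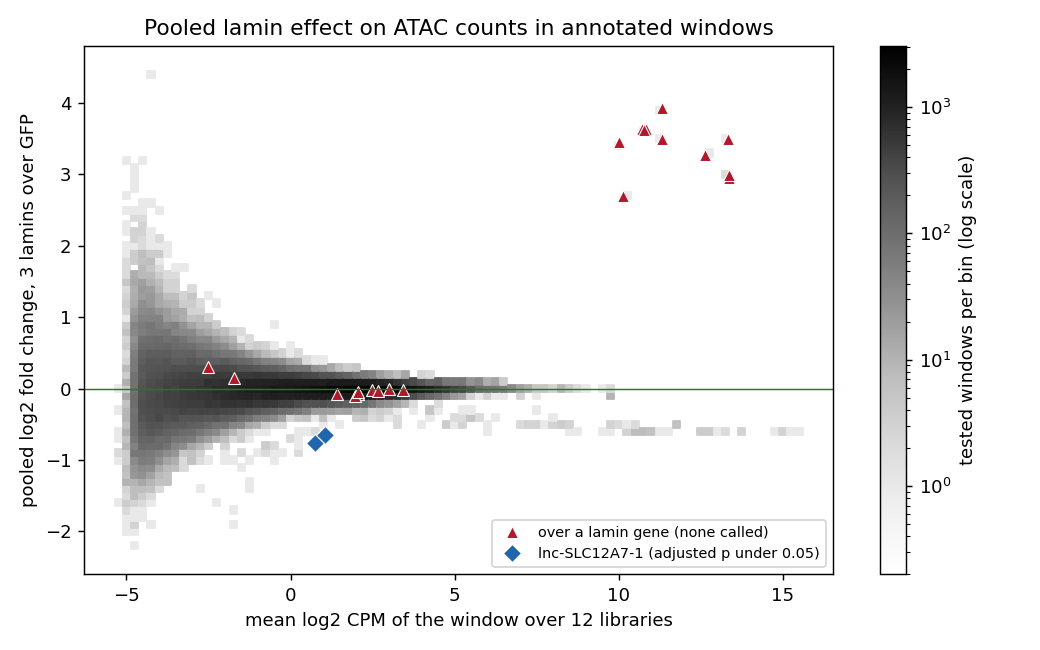
Pooled log2 fold change, 3 lamins against GFP, by mean CPM (log axis) over the 163786 tested windows, shaded by the number of windows, with the windows over lamin genes and the called windows marked. The cloud is centred on 0 and widens below 0.197 CPM, and the called windows are both below 0.

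A window moved the same way in all 3 lamins when its 3 log2 fold changes had one sign and the largest of the 3 p-values passed after adjustment over all windows. By this rule 0 windows (0%) passed, with a lowest adjusted p of 1, and DESeq2 also gave 0. With each unadjusted p under 0.05, 691 windows (0.422%) at 520 loci had one direction, 404 higher (0.247%) and 287 lower (0.175%), and by DESeq2 674 did. The 3 comparisons share the same 3 GFP libraries, so a GFP library that stands high or low in a window moves all 3 alike. In 83192 windows (50.8%) the 3 fold changes had one sign at any p. In 1703 windows (1.04%) the 9 lamin libraries lay wholly on one side of GFP, 881 above (0.538%) and 822 below (0.502%).

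The 404 higher and 287 lower windows were not alike. The higher ones were narrower and weaker, with a median width of 2327 bp and 0.307 CPM. The lower ones had medians of 6421 bp and 1.90 CPM, and all tested windows 5295.5 bp and 0.870 CPM. An annotated gene start lay within 1000 bp of 23% of the higher, 46.3% of the lower and 38.9% of all tested windows. Per kb their levels were close, at 0.119, 0.125 and 0.109 CPM. The median size of the pooled difference was 0.65 log2 in the higher and 0.29 in the lower windows. In the flanks of 500 bp the medians were 0.03 and −0.03 log2, and in those of 50 kb 0.01 and −0.01. Of the 691 windows, 1 carried an RNA polymerase III gene of the lists below, as did 562 of all 163786 tested windows. These sets were selected by their p-values, so their sizes, their directions and the contrast with their flanks are a description that the selection alone can give. The same holds for their widths, their levels and their shares near gene starts.

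The windows that fell are 2 overlapping windows of lnc-SLC12A7-1, a lncRNA on chromosome 5 beside SLC12A7, the gene of a potassium-chloride cotransporter. The window chr5:1040593-1048462 had 2.52, 2.05 and 2.45 CPM with GFP, 2.59, 2.37 and 2.01 with LMNA, 1.13, 1.19 and 1.09 with LMNB1, and 0.738, 0.993 and 1.29 with LMNB2. The LMNB1 and LMNB2 libraries lay below all GFP libraries, and the LMNA libraries overlapped GFP. It fell by 0.76 log2 in the pooled contrast (SE 0.109, 95% interval −0.98 to −0.54, adjusted p = 0.00974, edgeR's quasi-likelihood test). The difference was −0.02 log2 with LMNA, −1.04 with LMNB1 and −1.22 with LMNB2, and the 3 lamins differed from one another (adjusted p = 0.000101, edgeR's joint test). Against GFP it fell in LMNB1 (adjusted p = 0.0013) and in LMNB2 (adjusted p = 0.000162) and did not pass in LMNA (adjusted p = 0.999), all by edgeR's quasi-likelihood test. The wider window, chr5:1040844-1050458, overlaps the SLC12A7 gene and fell by 0.66 log2 (adjusted p = 0.00974, edgeR's quasi-likelihood test), with −0.07, −0.88 and −1.02 with LMNA, LMNB1 and LMNB2. The 50 kb flanks of the first window differed by −0.02 log2.

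Together 29 tested windows lie inside the span of the 2 called ones, under the names lnc-SLC12A7-1, lnc-NKD2-1 and lnc-NKD2-3, and they share reads. All 29 were lower, by 0.66 to 1.06 log2, and 24 had an unadjusted p under 0.05. None of the 27 narrower windows passed edgeR's quasi-likelihood test, where 0.979 was their smallest adjusted p. Their libraries were further apart within groups. The ratio of the highest to the lowest library of a group reached a median of 3.13 in the narrower windows and at most 1.74 in the called ones. In the narrower lnc-SLC12A7-1 window chr5:1045329-1048238, for example, LMNA had 1.61, 0.353 and 0.619 CPM and GFP 0.65, 0.657 and 1.28. DESeq2 without independent filtering also called both of the wider windows, chr5:1040593-1048462 and chr5:1040844-1050458 (adjusted p = 6.95e-06 for each), and with the filtering gave them no adjusted p. The call of chr5:1040593-1048462 was lost without GFP replicate 1 (−0.71 log2, adjusted p = 0.195) and without GFP replicate 3 (−0.72, adjusted p = 0.108), both by edgeR's quasi-likelihood test. Leaving LMNB1 or LMNB2 out of the contrast gave −0.62 (adjusted p = 0.277) and −0.53 (adjusted p = 0.974), and leaving out LMNA gave −1.13 (adjusted p = 1.91e-05, edgeR's quasi-likelihood test).

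The windows nearest to a shared change did not pass edgeR's test, and their values are given as measured. DESeq2 without independent filtering called 6 of them: lnc-TM2D3-2 (adjusted p = 0.01505), lnc-RBM25-1 (0.02021) and lnc-PLEKHA7-6 (0.02998) higher, and lnc-NRARP-3 (0.01242), lnc-DBNDD1-1 (0.03132) and lnc-TRABD2A-5 (0.04664) lower. These calls thus depend on the test. Among windows at or above the median level, lnc-TM2D3-2 at chr15:101500206-101501885 had the lowest p among higher ones outside the lamin genes. It had 0.821, 0.645 and 0.867 CPM with GFP, 1.2, 1.26 and 1.15 with LMNA, 1.2, 1.17 and 1.08 with LMNB1 and 1.26, 1.04 and 1.01 with LMNB2. All 9 lamin libraries were above all GFP libraries, by 0.63, 0.56 and 0.51 log2 with LMNA, LMNB1 and LMNB2. The pooled difference was 0.56 log2 (SE 0.115, 95% interval 0.33 to 0.80, adjusted p = 0.485, edgeR's quasi-likelihood test), against 0.04 in the 50 kb flanks. lnc-RBM25-1 at chr14:73124415-73126513 had 1.01, 0.962 and 1 CPM with GFP and from 1.29 to 1.51 in the lamins, with no overlap. Its pooled difference was 0.46 log2 (SE 0.0972, 95% interval 0.27 to 0.66, adjusted p = 0.602, edgeR's quasi-likelihood test). Neither window overlaps a protein-coding gene.

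The other higher windows of this kind lay in protein-coding genes or between them. lnc-PLEKHA7-6, over SOX6, a transcription factor gene, had from 3.07 to 3.35 CPM with GFP and from 3.64 to 4.14 in the lamins (0.29 log2). LINC01500, over DACT1, a regulator of Wnt signalling, had 29.8, 27.6 and 28.7 CPM with GFP and from 30.2 to 33.1 in the lamins, a difference of 0.14 log2 without overlap. lnc-PAPPA-6 (0.43 log2), over ASTN2 and TRIM32, and LINC02360 (0.39) had no overlap either. In lnc-PLA2G4A-7 (0.45 log2), HSALNG0077273 over CCNY, the cyclin Y gene (0.40) and HSALNG0129957 over TGM2, the transglutaminase 2 gene (0.38), lamin and GFP libraries overlapped. None of these passed edgeR's test.

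Among lower windows, lnc-NRARP-3 at chr9:137329326-137331817, over EXD3, came next after lnc-SLC12A7-1. It had 1.53, 1.55 and 1.88 CPM with GFP, 0.895, 1.18 and 1.12 with LMNA, 0.988, 0.973 and 1.21 with LMNB1 and 1.46, 1.21 and 1.08 with LMNB2. All lamin libraries were below all GFP libraries, and the pooled difference was −0.56 log2 (SE 0.109, 95% interval −0.79 to −0.34, adjusted p = 0.272, edgeR's quasi-likelihood test). lnc-DBNDD1-1 had 3.45, 3.87 and 3.7 CPM with GFP and from 2.54 to 3.35 in the lamins (−0.34 log2). lnc-TRABD2A-5 (−0.36), lnc-SLC25A32-3 (−0.34) and HSALNG0083575 (−0.37) were likewise below GFP in all 9 libraries. ENSG00000286682.1, over TBC1D30 (−0.32), and lnc-TBC1D7-4, over PHACTR1 (−0.45), overlapped with GFP. The lower tRNA-named window at chr5:100048766-100049134 (−0.69 log2; GFP 1.12, 1.79 and 1.44 CPM, lamins 0.574 to 1.43) lies among RefSeq pseudogenes of mitochondrial genes, MTND5P10 and MTND4P35.

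**Figure D3:**
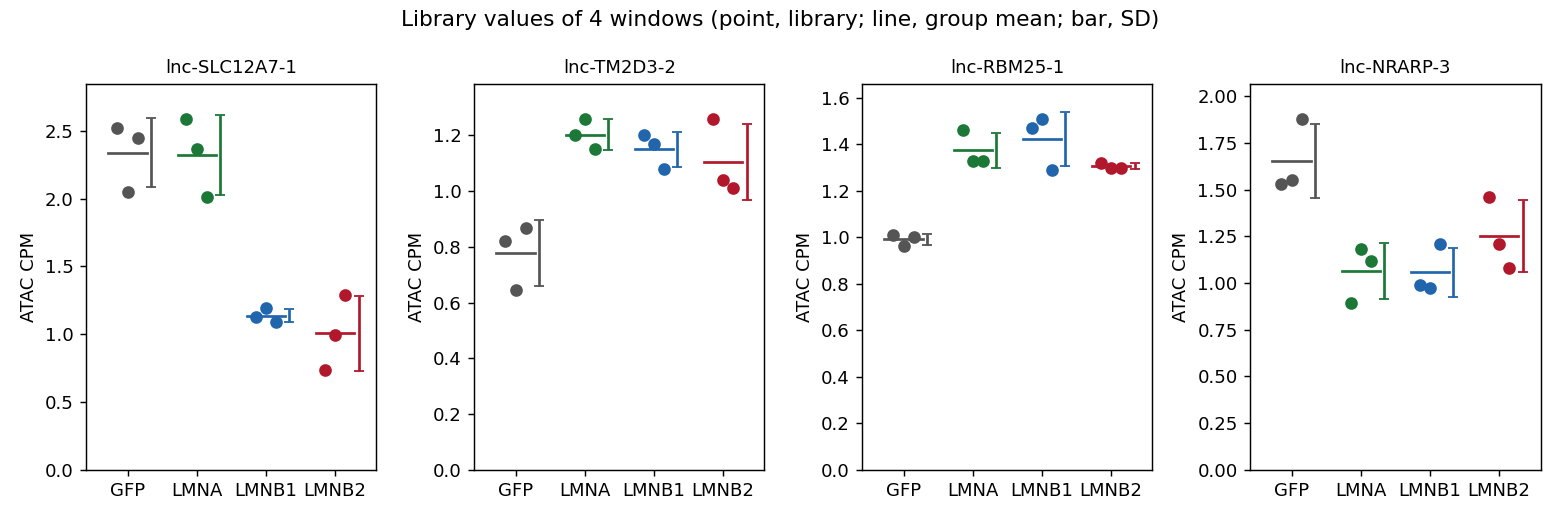
CPM of the 12 libraries, 1 point each, in a called lnc-SLC12A7-1 window and in lnc-TM2D3-2, lnc-RBM25-1 and lnc-NRARP-3, which did not pass (line, group mean; bar, SD). In lnc-SLC12A7-1 the LMNA libraries lie with GFP between 2.01 and 2.59 CPM, whereas in lnc-TM2D3-2 all 9 lamin libraries lie at 1.01 CPM or more and GFP at 0.867 or less.

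ENSG00000286196.1 is a lncRNA over SH2D3C, which encodes an adaptor protein with an SH2 domain. Its window chr9:127754384-127760710 had 2.32, 2.59 and 2.25 CPM with GFP, 1.85, 1.93 and 1.78 with LMNA, 1.74, 1.82 and 2.06 with LMNB1 and 1.88, 1.92 and 2.12 with LMNB2. All 9 lamin libraries were below GFP, and the difference was −0.33 log2 (adjusted p = 0.979, edgeR's quasi-likelihood test). It is the one lower window of the named set that holds a RefSeq promoter entry of the gene it overlaps, and that sequence is shown for this reason (GRCh38.p14, chr9:127755255-127755554, minus strand, same motifs in capitals).

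SH2D3C start region: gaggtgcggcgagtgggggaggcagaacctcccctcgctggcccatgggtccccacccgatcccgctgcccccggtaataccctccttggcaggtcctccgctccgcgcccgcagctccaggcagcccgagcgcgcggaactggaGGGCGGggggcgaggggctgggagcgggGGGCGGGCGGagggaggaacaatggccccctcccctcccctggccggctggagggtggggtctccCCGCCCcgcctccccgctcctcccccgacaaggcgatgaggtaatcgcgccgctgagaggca

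It holds 4 GC boxes, of which a pair overlap, no CCAAT and 28 CpG at 75.3% GC.

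The lowest p for one direction in all 3 lamins, over windows of any level, was that of a window named for an SRP RNA at chr10:110541796-110542212. It had 0, 0 and 1 counts in GFP and from 7 to 21 counts in the lamin libraries, so it rests on very few reads. The unadjusted largest p of the 3 was 0.000256 there, 0.000654 in a wider lnc-TM2D3-2 window and 0.00164 in lnc-RBM25-1 (edgeR's quasi-likelihood test), and none passed adjustment.

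RNA polymerase III genes are the subject of the series. 5S rRNA genes have a first type of internal promoter, tRNA genes a second, and U6, 7SK, RMRP and RPPH1 a promoter upstream of the gene. Of 579 windows, 562 were tested: 277 were higher, none was called, and 5 higher and 12 lower had an unadjusted p under 0.05 (3.02%, against 4.88% of all windows). The median was −0.00 log2. Median levels per kb were high in some of these classes, at 5.25 CPM per kb for tRNA windows, 10.2 for 5S rRNA and 15.8 for SNAR. All tested windows had a median of 0.109 CPM per kb. Single members lay near that level, such as SNAR-E at 0.084 and RNU6-1 at chr10:13217119-13217524 at 0.145. All tested windows had a median width of 5295.5 bp, so windows of unlike width are compared. How reads with several matches were placed is not given in the sources used here.

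Of 482 tested tRNA windows, 229 were higher and 253 lower, with a median of −0.01 log2. By lamin the medians were 0.04 with LMNA, 0.03 with LMNB1 and −0.09 with LMNB2. The median tRNA difference from the GFP mean was 0.08, 0.06 and −0.15 log2 in the GFP replicates, a spread wider than the difference between groups. LMNA replicates stood at 0.09, 0.14 and −0.08, LMNB1 at 0.09, 0.07 and −0.06 and LMNB2 at −0.10, −0.09 and −0.09. The 17 windows of 5S rRNA ranged from −0.12 to 0.06 log2. Of 38 SNAR windows, small RNAs of primates, 29 were higher with a median of 0.04. RN7SK, which holds the elongation factor P-TEFb in check, had 10.6, 8.88 and 8.42 CPM with GFP, 9.87, 9.64 and 8.23 with LMNA, 10, 9.07 and 9.04 with LMNB1 and 9.55, 8.04 and 10.1 with LMNB2. Its groups overlapped fully and its difference was −0.00 log2 (95% interval −0.15 to 0.14). RN7SL1, RN7SL2 and RN7SL3, the RNA of the signal recognition particle, differed by 0.00, 0.06 and 0.08 log2, RMRP by 0.07 and RPPH1, of RNase P, by −0.01. The Y RNAs were the class with the largest median among those with more than 1 window: RNY3 −0.31, RNY4 −0.28, RNY5 −0.26 and RNY1 0.16 log2. RNY3 had the lowest p of them (unadjusted 0.0116, adjusted 0.979, edgeR's quasi-likelihood test). The highest tRNA value, in tRNA-Arg-TCT-5-1 (chr6:27562034-27562420), came from a window with 0, 0.0235 and 0 CPM with GFP.

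**Figure D4:**
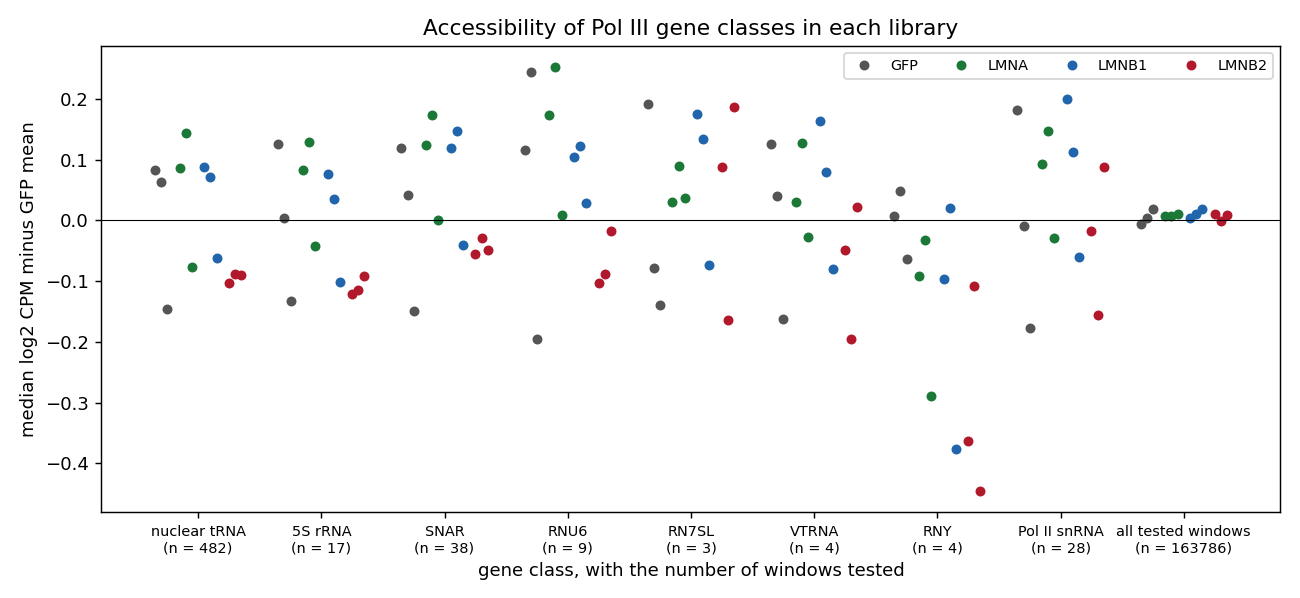
Median log2 CPM minus the GFP mean in each library, 1 point each, for 7 RNA polymerase III classes, the Pol II snRNA genes and all tested windows. In the tRNA windows GFP spans −0.15 to 0.08 and covers the 9 lamin libraries except LMNA replicates 1 and 2 and LMNB1 replicate 1, which lie at 0.09 and 0.14.

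Local enrichment of tRNA windows was also measured within each library, as the log2 ratio of their summed read density to that of their 50 kb flanks. It was 3.71, 3.71 and 3.64 with GFP (3.69 ± 0.04, SD, n = 3), and 3.72, 3.73 and 3.67 on average in LMNA, LMNB1 and LMNB2. The difference was 0.02 (exact two-sided permutation test over 220 assignments, p = 0.491, where 0.00909 is the smallest possible), and 5 of 9 lamin libraries were above the GFP mean. Without GFP replicate 3 it was −0.00. An enrichment of 12.5- to 13.5-fold was thus found in all groups, and a difference was not detectable.

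In other non-coding RNA classes the share was set beside the 4.88% of all windows. Unadjusted p-values under 0.05 were found in 9 higher and 2 lower of 203 SNORD windows (5.42%) and in 46 higher and 39 lower of 1887 microRNA windows (4.5%). Antisense lncRNAs had 133 higher and 248 lower of 8945 (4.26%) and LINC lncRNAs 273 higher and 189 lower of 10564 (4.37%). SNHG host genes with GAS5, which carry snoRNAs in their introns, had 1 higher and 1 lower of 383 (0.522%). None of the windows in these classes was called. The HOX lncRNAs had 13 of 105 lower and none higher (12.4%). Of those, 9 were among the 11 overlapping windows of HOTAIRM1 and 4 among the 9 of HOXD-AS2, so they stand for a pair of loci. All 11 HOTAIRM1 windows were lower, with a median of −0.15 log2. None of them passed adjustment. HOTAIR, of the HOXC cluster, had all 11 windows higher with a median of 0.06 and none with an unadjusted p under 0.05. The imprinted set had 6 higher and 2 lower of 118 (6.78%). Of these, 5 higher ones were overlapping windows of GNAS-AS1, whose 10 windows were all higher (median 0.16 log2), and MEG8 had 1 higher and 2 lower. H19 (9 of 22 higher, median −0.03) and SNHG14 (4 of 16 higher, median −0.08) had none.

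No start-site window of the protein-coding gene lists was called. Nuclear envelope genes (12 of 21 with a window, 33 windows) had 3 higher windows with an unadjusted p under 0.05 (9.09%, against 4.88% of all windows), of which 2 were those over LMNB1 and 1 was at SUN2 (0.22 log2), a protein that links the lamina to the cytoskeleton. The RNA polymerase III machinery (14 of 35 genes, 22 windows) had none, with a range from −0.24 to 0.20 log2. Stress response genes (10 of 16 genes, 18 windows) had none either, from −0.13 to 0.12.

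Lamin and GFP libraries also differed in mitochondrial DNA, which has no nucleosomes and takes up the transposase readily. Its share of the counts over windows was 39.9%, 47.5% and 47% with GFP, 39.4%, 44.1% and 39.8% with LMNA, 33.9%, 32.8% and 34.1% with LMNB1, and 25.2%, 30.7% and 24.5% with LMNB2. The group means were 44.8 ± 4.24% (SD, n = 3) with GFP, 41.1 ± 2.62% with LMNA, 33.6 ± 0.684% with LMNB1 and 26.8 ± 3.43% with LMNB2. Of 9 lamin libraries, 8 were below all GFP libraries, and LMNA overlapped GFP. The lamins were lower by 10.95 percentage points (exact two-sided permutation test, p = 0.0182). With the 50 kb flanks in the total the GFP shares were smaller and the difference was −4.02 points (same exact test, p = 0.0182). Without GFP replicate 2 or 3 the difference was −9.59 and −9.88 points, each with p = 0.0727 by the same exact test. Overlapping windows share reads, so these percentages are not shares of reads. The total also holds counts over the overexpressed genes, which lower the mitochondrial share. In lnc-GADD45B-1, over LMNB2, these were 12087249 of 273.8 M in LMNB2 replicate 1 and 18181 of 156 M in GFP replicate 1. Their part in the difference was not tested. Fewer copies of mitochondrial DNA per cell and less of it carried into the nuclei cannot be told apart here.

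Across windows, all 46 tested on the mitochondrial chromosome were lower, from −0.64 to −0.54 log2. All 46 had an unadjusted p under 0.05, against 4.88% of all windows. None was called by edgeR's quasi-likelihood test (adjusted p = 0.979), and DESeq2 called 45 of the 46, or 35 without independent filtering. The same edgeR test called 26 of them lower when only windows of at most 1000 bp were tested, and 43 when libraries were scaled by total counts alone. Their medians were −0.23 log2 with LMNA, −0.62 with LMNB1 and −0.86 with LMNB2, the order of the shares. These windows lie on 1 molecule and are not independent.

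Windows over nuclear copies of mitochondrial DNA were lower where counts were high. Of 158 tested windows up to 1000 bp over RefSeq mitochondrial pseudogenes, a set chosen after the values were seen, 103 were lower. An unadjusted p under 0.05 was found in 22 lower and 3 higher ones (15.8%, against 4.88% of all windows). None was called by edgeR's quasi-likelihood test over all windows. The same test called 12 among windows of at most 1000 bp, of 42 called in all, and 8 with total counts alone, of 104. DESeq2 called 8 of them, of 84 in all, or 1, of 62, without independent filtering. All 33 with at least 1 CPM were lower, with a median of −0.47 log2 and medians of −0.05, −0.57 and −0.81 with LMNA, LMNB1 and LMNB2. The 125 below 1 CPM had a median of −0.06. The windows with the most counts are 13 clustered around MIR12136 on chromosome 1, at 126 to 855 CPM, all lower with a median of −0.52. Their part in nuclear accessibility and that of reads from mitochondrial DNA itself cannot be told apart, since the way reads with several matches were placed is not given in the sources used here. The window of MIR12136, chr1:632518-632835, is an example. It had 164, 240 and 216 CPM with GFP, 149, 209 and 197 with LMNA, 148, 148 and 117 with LMNB1 and 107, 141 and 94.9 with LMNB2. LMNB2 and LMNB1 libraries were below all GFP libraries, LMNA libraries overlapped GFP, and the pooled difference was −0.53 log2 (SE 0.166, adjusted p = 0.979, edgeR's quasi-likelihood test). Its annotated miRNA is shown because the locus lies in such a copy. The mature form lies at chr1:632668-632685 on the minus strand (RefSeq, GRCh38.p14), with its seed, bases 2 to 8, in capitals. The hairpin follows.

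hsa-miR-12136: gAAAAAGUcauggaggcc
MIR12136 hairpin: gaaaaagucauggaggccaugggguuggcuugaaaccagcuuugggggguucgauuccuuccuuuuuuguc

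**Figure D5:**
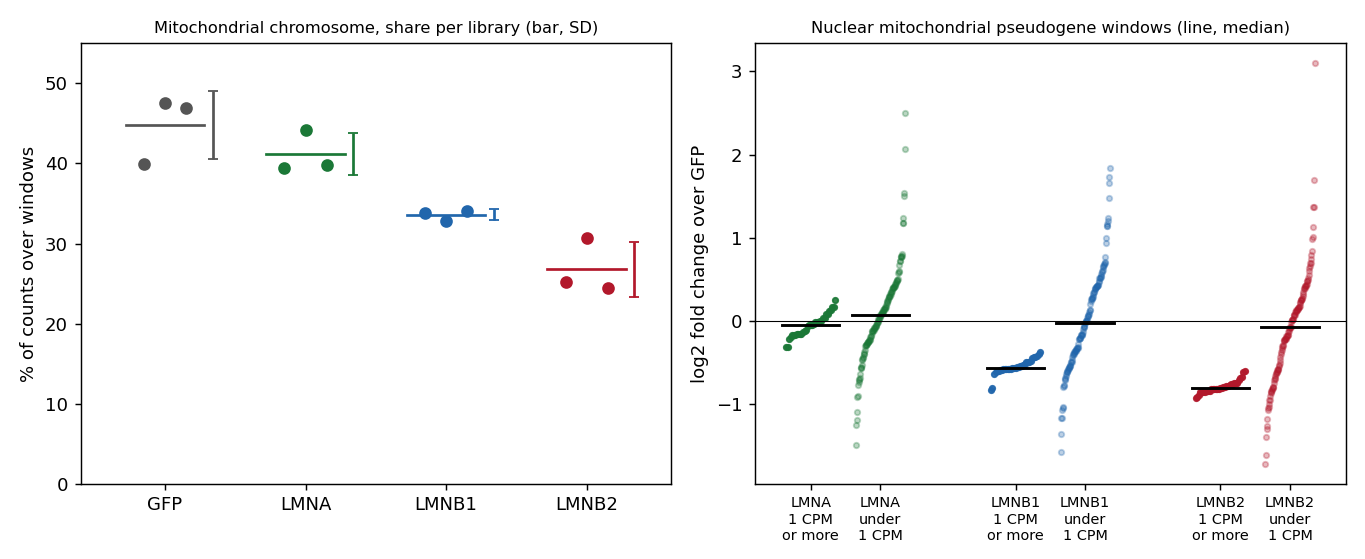
Share of window counts on the mitochondrial chromosome in each library (percent; line, group mean; bar, SD), and log2 fold change of each lamin over GFP in windows over nuclear mitochondrial pseudogenes, split at 1 CPM (line, median). GFP lies between 39.9% and 47.5% and LMNB2 between 24.5% and 30.7%, and the pseudogene windows of 1 CPM or more have medians of −0.05, −0.57 and −0.81 log2 with LMNA, LMNB1 and LMNB2.

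The lamins were also compared with one another. At an adjusted p under 0.05, edgeR's joint quasi-likelihood test called 150 windows (0.0916%), and 10225 (6.24%) passed without adjustment. The pooled contrast with GFP called 2, but the order was not stable: with total counts alone the counts were 95 among lamins and 104 pooled, and in windows of at most 1000 bp 16 and 42. Of the 150, 12 were over or within 50 kb of a lamin gene, 33 lay on chromosome 3, 28 on chromosome 5 and 22 on chromosome 1. These chromosomes held 9157, 9306 and 14297 of the 163786 tested windows. Overlapping windows share reads, so these are not counts of loci. Single lamins against GFP gave 1 called window in LMNA (0.000611%), 5 with LMNB1 (0.00305%) and 4 with LMNB2 (0.00244%). The window called with LMNA was lnc-SEMA4A-1, over LMNA itself, and lnc-SLC12A7-1 was among those called with LMNB1 and with LMNB2. The count of 150 moved with single libraries: it was 8 without LMNA replicate 2 or LMNA replicate 3, 9 without LMNB1 replicate 1 or LMNB1 replicate 2, 21 without LMNA replicate 1, 27 without GFP replicate 2 and 28 without LMNB2 replicate 1. Leaving out GFP replicate 3, GFP replicate 1 or LMNB1 replicate 3 raised it to 585, 621 and 1118.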

How the data were processed

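ATAC-seq was measured in 12 libraries, and the authors deposited 1 table of raw counts per annotated non-coding RNA feature, in GRCh38 per the submitters' processing notes. Windows are the features with a margin, and flanks of 500, 5000 and 50000 bp have rows of their own. The aligner, the counter, the treatment of duplicates and multiple matches and any shift of insertion sites are not given in the sources used here. Windows of the normal class were kept by filterByExpr, scaled by TMM and fitted with edgeR 4.0.16 (quasi-likelihood, 1 mean per group, R 4.3.3), with the contrast of the equally weighted lamins against GFP. P-values were adjusted by Benjamini-Hochberg over all tested windows with a threshold of 0.05. Fitted fold changes use a prior count of 0.125 and library levels 2. DESeq2 1.42.0 was an alternative, with and (added after the data were seen) without independent filtering, as were other scalings, filters, window widths, a replicate block and leaving out each library. Levels are CPM, and figures were drawn with matplotlib 3.10.9.

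Windows named in the text were those over the lamin genes, then, at or above the median level, the called windows and, to fill 10 in each direction, those with the lowest unadjusted p and 1 sign in all 3 lamins, 1 per locus, and the window with the lowest p of each RNA polymerase III class. Members and lists were chosen with earlier results of these data known. Sequences are RefSeq's (GRCh38.p14). The called windows' own sequence was not used here, since no genome was given. The fit was tested on simulated data with changes planted only in windows with high counts and with a single fixed spread. That does not cover windows with low counts or libraries that stand apart. In the pairing check, same-numbered libraries of different groups had correlations of −0.08 to 0.20 over 18 pairs, of which 2 were over 0.1. Numbers were taken not to pair libraries, which these correlations cannot settle. No column of another series was among those used.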

Additional observations from a re-analysis of the deposited data

Results flagged for a closer look

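The 150 windows that differed among the 3 lamins by edgeR's joint quasi-likelihood test are listed because the 3 groups differ under the same contrast with GFP. They include the 2 called windows of lnc-SLC12A7-1, in which the B-type lamins were lower than GFP and LMNA was not (adjusted p of the difference 0.000101 and 0.000129). They also include 12 windows over the lamin genes, each high in the libraries of 1 lamin. Groups of 3 libraries were not tested for outlying libraries.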

How the results depend on the processing

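The count of windows that moved the same way in all 3 lamins was 0 in every setting that could test it. The pooled count, 2, was 7, 0 and 4 when LMNA, LMNB1 or LMNB2 was left out of the contrast, 0 with the 9 lamin libraries as 1 group, 42 in windows of at most 1000 bp (26 of them on the mitochondrial chromosome), 84 by DESeq2 and 62 by DESeq2 without independent filtering. When libraries were scaled by total counts alone it was 104, 32 higher and 72 lower. That scaling raised the median of all windows by 0.13 log2, and unadjusted p-values under 0.05 then split into 26914 higher and 684 lower, against 3706 and 4284. Leaving out 1 library gave 0 to 5 (0 without GFP replicate 1, 1 without GFP replicate 3, 4 without LMNA replicate 2 or LMNB1 replicate 3, 5 without LMNB2 replicate 3). The 1 window called without GFP replicate 3 was of lnc-CFAP46-3. The lnc-SLC12A7-1 call held in 21 of 26 alternatives that gave it an adjusted p.

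The count that differed among the lamins, 150, was 9 at an adjusted p under 0.01, 95 with total counts only, 16 in windows of at most 1000 bp, 85 without windows near the lamin genes, 754 by DESeq2, 617 by DESeq2 without independent filtering, and 8 to 1118 without 1 library. With the replicate number as a block it was 553, the pooled count 2 and the same-way count 0. Whether the numbers pair these libraries is not given in the labels and was not settled by the pairing check. The cause of these moves was not tested.

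The mitochondrial difference stayed negative, from −13.4 to −9.59 points without 1 library, and lost its call at −9.591 and −9.876 without GFP replicates 2 and 3. The tRNA enrichment difference turned to −0.01422 with the median of single-window ratios and to −0.0035 without GFP replicate 3 (−0.0035 to 0.0325 without 1 library). lnc-SEMA4A-1, over LMNA, was −0.2873 with LMNA left out of the contrast. Values near 0 changed sign. RN7SK was 0.00106 without LMNA and 0.002916 without LMNB2 in the contrast, 0.121 with total counts only, 0.00122 with the replicate block, 0.001074 without mitochondrial windows, 0.01531 in windows of at most 1000 bp, and −0.06871 to 0.1015 without 1 library. RPPH1 was 0.001377 without LMNB2, 0.1101 with total counts only, 0.004173 in windows of at most 1000 bp, and −0.08836 to 0.08136 without 1 library. With total counts only RNA5S8 was 0.003522 and RNU6ATAC 0.05882. Without 1 library RNU6ATAC ranged from −0.2062 to 0.01442, BCYRN1 from −0.2367 to 0.03502, VTRNA1-1 from −0.02887 to 0.07043 and RMRP from −0.007502 to 0.1225. Of the other alternatives for named windows, 921 kept direction and call, 46 gained a call and 10 lost one. In the lowest quartile of CPM the unadjusted interval of the pooled difference lay inside a 2-fold change in either direction for 43% of windows. Such intervals do not give the change that would pass the adjusted test.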
